A study of Mus musculus with 5 samples.

Results

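Complement is a cascade of blood and tissue proteins that marks microbes and dying cells for removal, and 9 of its genes were followed here, of 32285 genes counted, in single cells of the mouse mammary gland. They are C1qa, C1qb, C1qc, C4b, C2, C3, Cfb, Hc and Serping1, taken by name, and all 9 were found in every count file. The study compared mammary tissue of mice labelled Frmd3 KO with that of mice labelled WT. Frmd3 encodes a FERM domain protein that links membrane proteins to the cell skeleton, and the title of the study places it in the control of mammary epithelial fate through Notch signalling. There were 3 KO libraries, KO1, KO2 and KO3, and 2 WT libraries, WT1 and WT2, each taken as 1 mouse. They were made with 10x Genomics 3′ chemistry and counted as unique molecular identifiers, or UMIs, each standing for 1 captured RNA molecule. The sources used here name no allele, strain, age or treatment of the mice, so whether Frmd3 was lost in every cell or in a tissue only cannot be said.

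C1q is assembled from the products of C1qa, C1qb and C1qc, and it starts the classical pathway when it binds antibody or a dying cell. The C1r and C1s proteases bound to it then cut C4, of which C4b is the mouse gene, and C2, and the pieces form an enzyme that cuts C3. Factor B, the product of Cfb, takes the place of C2 in the alternative pathway, which amplifies the cut of C3. C5, the product of Hc, is cut next and begins the pore that kills the target, whereas the C1 inhibitor, the product of Serping1, blocks C1r and C1s. Liver supplies most of these proteins to blood, while C1q comes mainly from macrophages and related myeloid cells, and fibroblasts can make several of the others.

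After filters on genes, mitochondrial reads and doublets, 26834 of the 32472 barcodes were used, with between 2218 and 9450 cells in a KO library and 4831 and 5895 in a WT library. The median number of UMIs per cell lay between 4192 and 12969 in the KO libraries and was 8654 and 12264 in the WT libraries. The 31 clusters were built without the complement genes, and 27 of them were named as 15 classes from marker genes. The other 4 clusters stayed unnamed, and they held 43.0% of the cells of KO1 against 1.40% to 7.43% in the other 4 libraries. In KO1 most of them fell in one cluster of 3767 cells, 39.9% of that library, led by Lyve1, Retnla and Folr2 but with all 9 fibroblast markers detected. Macrophage-like cells numbered 493, 77 and 417 in KO1, KO2 and KO3, and 493 and 235 in WT1 and WT2. Fibroblast-like cells numbered 2707, 1190 and 999 in the KO libraries, and 1661 and 2085 in the WT libraries. Frmd3 itself was counted at 2.07, 3.13 and 1.90 CPM, or UMIs per 1000000 UMIs, in the KO libraries, against 1.43 and 2.26 CPM in the WT libraries. The deleted stretch is not named and the tags read the 3′ end of the transcript, so these counts check nothing about the KO label. Different libraries shared 3 to 22 barcodes a pair, under 0.36% of either library.

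The genes sit in few places in the mouse genome, all read from the minus strand in build mm10 with GENCODE annotation M21. C1qa (chr4:136895917-136898803), C1qc (chr4:136889804-136893065) and C1qb (chr4:136880129-136886187) lie side by side on chromosome 4. C4b (chr17:34728380-34743882), Cfb (chr17:34856374-34862518) and C2 (chr17:34862604-34898265) lie together on chromosome 17, in the class III stretch of the major histocompatibility complex, with C3 (chr17:57203970-57228136) farther along the same chromosome. Hc (chr2:34983331-35061438) and Serping1 (chr2:84765387-84775444) are on chromosome 2. C2 overlaps Zbtb12 and Hc overlaps Gm13449 on the other strand, and the sources used here do not say whether the counting used strand.

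Promoters were at hand in RefSeq (GRCm38.p6) for 4 of the 9 genes, C1qb, C1qc, C3 and Hc. Those of C1qb and C3 are shown because the gene pair marks the contrast that runs through the data, C1qb in macrophage-like cells and C3 in fibroblast-like cells. Each runs 5′ to 3′ on the strand of the gene over the 250 bases before the start. In C1qb, which lies at chr4:136886201-136886450, capitals mark the letters GAGGAA, the core of sites bound by PU.1, a myeloid transcription factor. In C3, which lies at chr17:57228137-57228386, capitals mark the letters of NF-kB sites, GGGA followed after any 4 bases by CC, on either strand, and TTGCNNAA, those of C/EBP sites. The NF-kB letters of C1qb, which overlap each other, are not in capitals.
C1qb: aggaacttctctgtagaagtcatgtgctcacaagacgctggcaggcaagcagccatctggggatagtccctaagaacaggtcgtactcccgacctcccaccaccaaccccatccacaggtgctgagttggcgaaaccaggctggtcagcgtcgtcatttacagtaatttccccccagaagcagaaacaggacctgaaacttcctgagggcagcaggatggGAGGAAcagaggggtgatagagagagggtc
C3: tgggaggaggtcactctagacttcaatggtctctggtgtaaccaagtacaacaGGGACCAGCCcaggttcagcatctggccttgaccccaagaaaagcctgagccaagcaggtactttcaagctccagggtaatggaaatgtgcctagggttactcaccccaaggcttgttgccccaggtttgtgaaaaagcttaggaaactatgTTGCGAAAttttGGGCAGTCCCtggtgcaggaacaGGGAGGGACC
Among 32851 promoters of the same length, GAGGAA on either strand was present in 23.3%, the NF-kB letters in 17.6% and TTGCNNAA in 9.56%. C1qb and C1qc held GAGGAA, C1qb, C1qc and C3 held the NF-kB letters, and C3 held TTGCNNAA. None of the 4 held the MAF core TGCTGAC, the interferon response letters, a pair of GAAA runs with any 2 bases between them, or the STAT letters TTCNNNGAA, which were in 3.81%, 2.98% and 7.02% of all promoters. These matches describe letters in a window and show no binding.

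The genes of C1q were macrophage genes in this tissue. C1qa was counted at 4709, 4338 and 4512 CPM in macrophage-like cells of KO1, KO2 and KO3, against 4379 and 3164 CPM in WT1 and WT2. C1qb was at 2666, 4194 and 2434 CPM in the KO libraries, against 3131 and 3005 CPM in the WT libraries. C1qc was at 2268, 2447 and 1770.2 CPM in the KO libraries, against 2194 and 1798 CPM in the WT libraries. WT2 was the lowest of the 5 for C1qa, KO2 was the highest for C1qb, and the ranges of the KO and WT libraries overlapped for all 3 chains. Per library, macrophage-like cells held 55.5%, 94.3% and 91.1% of all C1qa UMIs in KO1, KO2 and KO3, and 89.3% and 90.3% in WT1 and WT2. The low share in KO1 went with its unnamed clusters, which held 39.1% of the C1qa UMIs of that library.

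The next classes were far below. Dendritic cell-like cells had C1qa at 248, 376 and 728 CPM in the KO libraries and 301 and 173 CPM in the WT libraries. The cluster behind that name had 5 of 8 dendritic cell markers detected but none of them among its 10 leading genes, which include Lyz1, Ear2, Il1b and H2-Ab1. Monocyte-like cells had C1qa at 26.2 to 178.8 CPM in the 4 libraries with at least 20 such cells, so their range reached that of the dendritic cell-like cells. In every other named class C1qa stood between 0 and 35.3 CPM. After thinning to 2000 UMIs per cell, 99.7%, 100% and 99.0% of macrophage-like cells in KO1, KO2 and KO3 carried C1qa, and 99.8% and 95.2% in WT1 and WT2. Among T cell-like cells, which are not a known source of C1q, the thinned share was 6.54%, 1.16% and 0% in the KO libraries and 4.12% and 0.554% in the WT libraries. Fibroblast-like cells, at 2.95%, 0.361% and 1.63% in the KO libraries and 2.95% and 0.932% in the WT libraries, stayed within the range of the T cell-like cells. Without thinning, the macrophage-like share was between 94.9% and 99.4%, the T cell-like share between 1.12% and 11.5% and the fibroblast-like share between 0.924% and 13.004%. Median depth was 3541 to 8986 UMIs in macrophage-like cells, 3657 to 6230 in T cell-like cells and 8863 to 15576 in fibroblast-like cells.

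All 3 chains were found together in most macrophage-like cells, in 91.7%, 94.8% and 87.8% of those of KO1, KO2 and KO3 and in 92.3% and 89.8% of those of WT1 and WT2. C1qa gave 48.8%, 39.5% and 51.8% of the C1q UMIs of these cells in the KO libraries, and 45.1% and 39.7% in the WT libraries. C1qc gave a steadier share, 23.5%, 22.3% and 20.3% in the KO libraries and 22.6% and 22.6% in the WT libraries. Monocyte-like cells were richer in C1qb, at 50.7% and 65.0% of their C1q UMIs in KO1 and KO2 and 51.5% and 60.1% in WT1 and WT2, where macrophage-like cells had 27.6% to 38.2%. Dendritic cell-like cells also had more C1qb than C1qa UMIs in KO1 (408 and 250) and KO2 (140 and 109). The same held in WT1 (621 and 418) and WT2 (352 and 204), but not in KO3 (445 and 596). The monocyte-like share in KO2 rested on 26 C1qb, 9 C1qa and 5 C1qc UMIs. These shares count 3′ tags, which do not scale with transcript length, and the capture of each transcript is not known. Over the mean levels of the 15 named classes, and among 10514 genes, the profile of C1qa was closest to those of Pf4 (Pearson r = 0.952), Mgl2 (r = 0.951) and C3ar1 (r = 0.9502), as a description with no test. C1qb was closest to C3ar1 (r = 0.973) and C1qc to Mrc1 (r = 0.968), both macrophage genes, the first the receptor for the C3a fragment and the second the mannose receptor.

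C4b was carried at similar levels by macrophage-like and fibroblast-like cells. In macrophage-like cells it stood at 651, 401 and 627 CPM in the KO libraries, against 514 and 560.2 CPM in the WT libraries. In fibroblast-like cells it stood at 323, 405 and 287 CPM in the KO libraries, against 645 and 579.8 CPM in the WT libraries. The class means, 551 and 448 CPM, were closer than the range over the 5 libraries of either class. C4a, a near-identical copy of C4b, averaged 1.26 CPM in its highest class, and how reads that match both genes were counted is not known, so the C4b level is uncertain to that extent. Schwann/glial-like cells followed, with 505 and 103 CPM in KO1 and KO2 and 189 CPM in WT2, from 33, 32 and 95 UMIs. Luminal progenitor-like cells, the milk-forming lineage, had 57.1, 57.2 and 20.9 CPM in the KO libraries and 86.5 and 64.4 CPM in the WT libraries. T cell-like cells gave 11.97, 4.56 and 2.58 CPM in the KO libraries and 29.3 and 8.38 CPM in the WT libraries, and they are not a known source of it. In luminal progenitor-like cells C4b came with 80.9, 209 and 45.0 UMIs per 100 UMIs of C3 in the KO libraries and 102 and 97.4 in the WT libraries. Fibroblast-like cells had 13.6, 17.1 and 24.7 C4b UMIs per 100 of C3 in the KO libraries and 24.0 and 18.4 in the WT libraries. T cell-like cells had 28, 3 and 1 C4b UMIs beside 74, 15 and 0 of C3 in the KO libraries. In the WT libraries they had 28 and 21 beside 48 and 200. The part of free RNA from other cells in the luminal values was not tested.

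C2, the partner of C4b, was highest in fibroblast-like cells, at 88.6, 148 and 68.4 CPM in the KO libraries and 142 and 163 CPM in the WT libraries. Macrophage-like cells had 48.4, 30.2 and 69.9 CPM in the KO libraries and 39.6 and 46.6 CPM in the WT libraries, and only the KO3 values of the 2 classes met. Pericyte/smooth muscle-like cells ranged from 1.59 CPM in KO1 to 125.8 CPM in KO3, with 5.33 CPM in WT1, on 25 to 78 cells a library, and mast cell/basophil-like cells, seen in 1 library, had 59.0 CPM. Hormone-sensing luminal-like cells had a low level of 7.45, 14.02 and 18.2 CPM in the KO libraries and 9.44 and 7.67 CPM in the WT libraries. That was 52.1, 97.8 and 202 UMIs of C2 per 100 of C3 in the KO libraries and 63.6 and 23.6 in the WT libraries. In fibroblast-like cells the same ratio was 3.74, 6.27 and 5.87 in the KO libraries and 5.28 and 5.19 in the WT libraries. The C2 profile over classes was closest to that of H6pd (r = 0.849), and that of C4b to Itsn1 (r = 0.898), weaker likenesses than those of the C1q genes.

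Cfb had the same pair of sources as C4b. Macrophage-like cells carried 246, 189.9 and 273 CPM in the KO libraries and 213 and 241 CPM in the WT libraries, and fibroblast-like cells 91.5, 206 and 77.4 CPM in the KO libraries and 125 and 236 CPM in the WT libraries. The 2 classes overlapped through KO2 and WT2, which were the highest libraries for fibroblast-like cells. Monocyte-like cells had 43.7 and 29.1 CPM in KO1 and KO2 and 70.4 and 74.9 CPM in WT1 and WT2. Blood endothelial-like cells had 88.0 and 21.4 CPM in KO2 and KO3 and 41.1 CPM in WT1, and epithelial classes stayed at or under 6.51 CPM.

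C3 and Serping1 belonged to the stroma. C3, the protein on which all routes of the cascade meet, was counted at 2367, 2367 and 1165 CPM in fibroblast-like cells of the KO libraries, against 2681 and 3147 CPM in those of the WT libraries. All 3 KO libraries were below both WT libraries, and KO3 was the lowest. Fibroblast-like cells held 69.5%, 87.1% and 91.6% of all C3 UMIs in the KO libraries and 86.2% and 85.5% in the WT libraries. Serping1 stood at 1122, 1596 and 939.9 CPM in the KO libraries and 1535 and 1896 CPM in the WT libraries, and KO2 lay between the WT values. Its profile over classes followed Col6a1 (r = 0.984) and Col6a2 (r = 0.983), chains of a collagen, and that of C3 followed Pi16 (r = 0.943), a fibroblast gene. Pericyte/smooth muscle-like cells came second for Serping1 with 255, 339 and 566 CPM in the KO libraries and 279 CPM in WT1, and blood endothelial-like cells had 112 and 149 CPM in KO2 and KO3 and 84.9 CPM in WT1.

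Among the other named classes, monocyte-like cells had the highest C3, with 222 and 323 CPM in KO1 and KO2 and 329 and 368 CPM in WT1 and WT2. Only 1.79 and 5.41 UMIs of C4b came with 100 of C3 there in the KO libraries, and 6.16 and 5.60 in the WT libraries, less than in fibroblast-like cells of any library. Neutrophil-like cells had 138 CPM in KO2 and 209 CPM in WT2. Macrophage-like cells had 73.5, 34.5 and 43.4 CPM of C3 in the KO libraries and 109.9 and 93.3 CPM in the WT libraries. Basal/myoepithelial-like and luminal progenitor-like cells were in the same band, between 22.5 and 99.0 CPM over both classes and all libraries. T cell-like cells had 31.6, 22.8 and 0 CPM in the KO libraries and 50.2 and 79.8 CPM in the WT libraries, and the ranges of these 4 classes overlapped. The part of free fibroblast RNA in those low values was not tested.

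Hc was seen mainly in one kind of fibroblast. In fibroblast-like cells it stood at 96.5, 1.73 and 123 CPM in the KO libraries and 71.1 and 13.1 CPM in the WT libraries, so KO2 and WT2 were low and the other 3 libraries high. No other class with a name passed 4.68 CPM. Fibroblast-like cells held 87.7%, 27.5% and 96.9% of all Hc UMIs in the KO libraries and 96.3% and 83.1% in the WT libraries. In KO2, where Hc was low, hormone-sensing luminal-like cells held 69.7% at a level of 2.96 CPM. Its profile over classes was closest to that of Aox3 (r = 0.936), followed by Tspan11 and Fgf10.

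**Figure D1:**
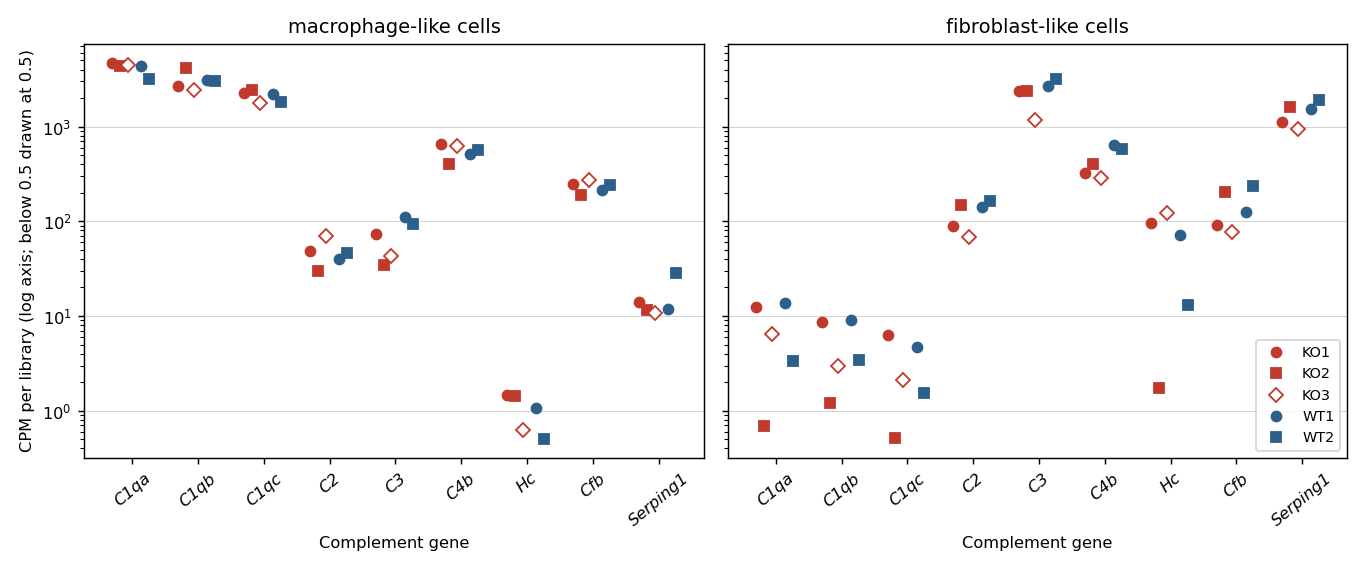
Level of each gene in CPM on a log axis in macrophage-like cells (left) and fibroblast-like cells (right), 1 point per library with KO1, KO2 and KO3 left of WT1 and WT2, and values under 0.5 CPM drawn at 0.5. C1q genes stand above 1000 CPM on the left and C3 on the right, and Hc in fibroblast-like cells ranges from 1.73 CPM in KO2 to 123 CPM in KO3.

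The stromal genes were spread unevenly over kinds of fibroblast. The fibroblast-like cells fell into 6 clusters, of which 4 were large, and another group with all 9 fibroblast markers, cluster 11, led by Krtdap, Dmkn and Sbsn, stayed unnamed. Cluster 2, led by Enpp2, Hmcn1, Scg3 and Slit2, had little C3, at 273, 256 and 89.3 CPM in the KO libraries and 491 and 541 CPM in the WT libraries. Cluster 3, led by Cxcl13, Sfrp2 and Dpp4, had 4140, 2781 and 3471 CPM in the KO libraries and 4872 and 3729.7 CPM in the WT libraries. Its C3 was above that of cluster 2 in all 5 libraries, by 6.89 to 38.9 times with a median of 10.9. Cluster 7 (Mrgprg, Smpd3), cluster 8 (Gdf10, Tspan11, Fmo2) and cluster 11 were closer to cluster 3, between 984 and 4624 CPM in any library. Cluster 3 also exceeded cluster 2 in C4b, by a median of 3.46 times (range 3.01 to 11.4), and in Cfb, by a median of 6.77 times (range 3.90 to 16.9). For Serping1 the step was smaller, with a median of 1.84 times and a range of 1.62 to 3.00.

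C2 followed another order. Cluster 8 had 481, 537 and 406 CPM of C2 in the KO libraries and 534 and 626 CPM in the WT libraries, whereas cluster 3 had 52.2, 53.1 and 97.4 CPM in the KO libraries and 79.9 and 56.2 CPM in the WT libraries. The step was a median of 9.21 times (range 4.16 to 11.1) and was seen in all 5 libraries. C4b was also highest in cluster 8, at 1001, 761 and 898 CPM in the KO libraries and 1204 and 1058 CPM in the WT libraries, by a median of 1.82 times over cluster 3 (range 1.13 to 2.17). Serping1 reached 2398, 2408 and 2568 CPM there in the KO libraries and 2818 and 2725 CPM in the WT libraries. Cfb, of the alternative pathway, was also higher in cluster 8 than in cluster 3 in all 5 libraries, by a median of 1.45 times (range 1.33 to 1.82). C3 ran the other way, a little lower in cluster 8 than in cluster 3 in each of the 5 libraries, with a median ratio of 0.819. Among the 4 large fibroblast-like clusters, the Gdf10 and Fmo2 cells thus carried the most C2 and C4b, the genes of the classical C3-cutting enzyme, while the Cxcl13 and Sfrp2 cells of cluster 3 carried the most C3. The small unnamed cluster led by Sfrp5 and Tenm2 had more C2 still, 615 CPM in KO2 and 845 CPM in WT2, with C4b at 3.71 CPM in KO2 and 21.9 CPM in WT2.

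Hc was the one stromal gene led by cluster 2, with 219, 68.3 and 191 CPM in the KO libraries and 152 and 174 CPM in the WT libraries, while the other fibroblast-like clusters with at least 20 cells were at or under 5.32 CPM. Cluster 2 held 1328, 37 and 589 cells in the KO libraries and 822 and 158 in the WT libraries, and cluster 3 held 398, 689 and 230 cells in the KO libraries and 197 and 1199 in the WT libraries. Cluster 3 was thus the largest fibroblast-like cluster of KO2 and WT2, and cluster 2 the largest of KO1, KO3 and WT1. The libraries low in Hc over all fibroblast-like cells were those with few cluster 2 cells.

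**Figure D2:**
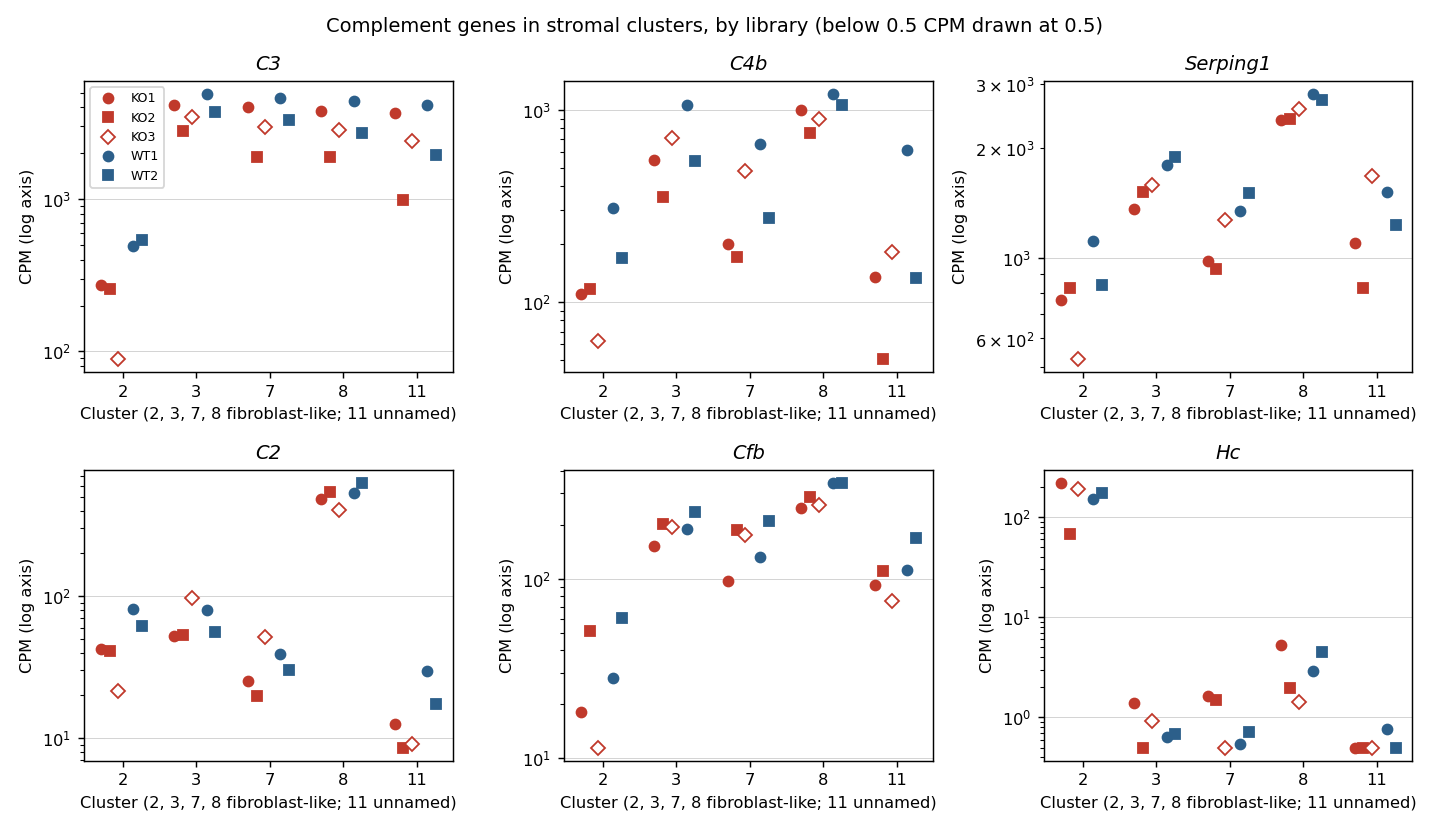
Level of C3, C4b, Serping1, C2, Cfb and Hc in CPM on a log axis in fibroblast-like clusters 2, 3, 7 and 8 and in the unnamed cluster 11, 1 point per library, with KO libraries left of WT libraries. C3 is 6.89 to 38.9 times higher in cluster 3 than in cluster 2, C2 peaks in cluster 8, and Hc is seen mainly in cluster 2.

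Macrophage-like cells divided as well when the cells were clustered at resolution 2 in place of 1. One group, led by Lyve1, F13a1, Cd209f and Folr2, genes of resident macrophages, held 382, 24 and 338 cells in the KO libraries and 251 and 108 in the WT libraries. The other, led by Ccl3, Ccl4, Nlrp3 and Tnf, held 111, 53 and 79 cells in the KO libraries and 242 and 127 in the WT libraries. The classical and alternative pathway enzymes were concentrated in the Lyve1 and Folr2 group. C4b stood there at 816, 1018 and 771 CPM in the KO libraries and 908 and 1022 CPM in the WT libraries, and in the Ccl3 and Ccl4 group at 216, 157 and 132 CPM in the KO libraries and 247 and 244 CPM in the WT libraries. That was a ratio of 3.68 to 6.50 in each of 5 libraries. Cfb stood at 314, 497 and 330.1 CPM in the KO libraries and 383 and 444 CPM in the WT libraries in the first group, and at 64.9, 68.3 and 75.8 CPM in the KO libraries and 97.1 and 102 CPM in the WT libraries in the second. Its ratio was 3.94 to 7.27, and that of C2 was 2.92 to 8.07, again in the same direction in all 5 libraries.

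The C1q genes differed far less between these groups. The ratio was 1.40 to 1.67 for C1qa and 1.07 to 1.36 for C1qc, higher in the Lyve1 and Folr2 group in all 5 libraries, and 0.898 to 1.30 for C1qb, higher in 3 of 5. C1qa stood at 5296, 5918 and 4819.7 CPM in the KO libraries and 5478 and 3928 CPM in the WT libraries in the Lyve1 and Folr2 group. It stood at 3165, 3711 and 3447 CPM in the KO libraries and 3632 and 2642 CPM in the WT libraries in the Ccl3 and Ccl4 group. Both groups therefore carried C1q, and C4b, Cfb and C2 set them apart. The C3 of macrophage-like cells, at 44.6 to 153 CPM in the first group and 26.1 to 86.9 CPM in the second, was higher in the first in 4 of 5 libraries.

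**Figure D3:**
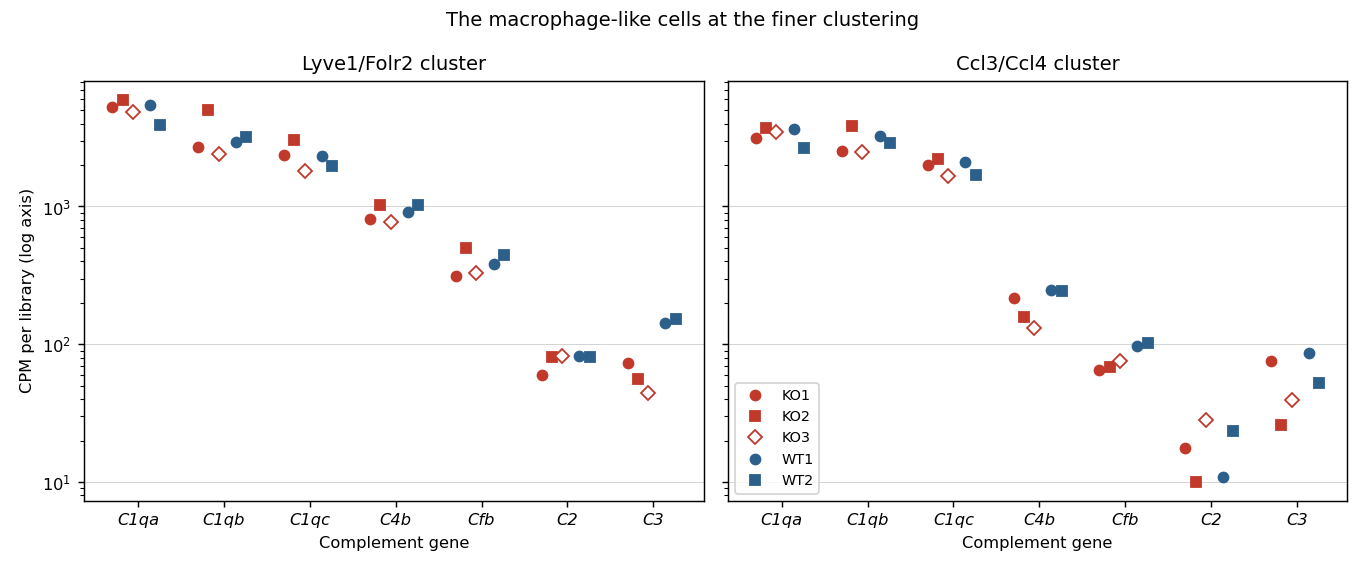
Level of C1qa, C1qb, C1qc, C4b, Cfb, C2 and C3 in CPM on a log axis in the macrophage-like group led by Lyve1 and Folr2 and in the group led by Ccl3 and Ccl4, 1 point per library, with KO libraries left of WT libraries. The C1q genes lie close together in the 2 groups, whereas C4b is 3.68 to 6.50 times and Cfb 3.94 to 7.27 times higher in the Lyve1 and Folr2 group.

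The genotypes were compared on UMIs summed per library and class with edgeR's quasi-likelihood test, and Benjamini-Hochberg adjustment ran over all genes tested in a class. No member passed an adjusted p of 0.05 in any class. In fibroblast-like cells 0 of 9 members were called, and so were 0% of the 14041 genes tested. Before adjustment 106 of these genes had a p under 0.05, and DESeq2 called 1 gene, no member. The estimate was negative for 8 of 9 members. These include C1qa, C1qb and C1qc, which averaged 7.34, 5.05 and 3.04 CPM in these cells and had errors larger than their estimates. C4b was below both WT libraries in all 3 KO libraries, with a log2 difference, KO over WT, of -0.88 ± 0.23 (SE; unadjusted p = 0.0091, edgeR adjusted p = 0.9997). The KO mean was 338 ± 60.3 CPM (SD, n = 3) and the WT mean 612 ± 45.9 CPM (SD, n = 2). On the TMM-scaled values that the test uses, C4b and C3 were the members with every KO library below every WT library, 2 of 9, where 4.58% of all genes tested had that order. For C3 the difference was -0.59 ± 0.37, for Serping1 -0.52 ± 0.31, for C2 -0.60 ± 0.38 and for Cfb -0.55 ± 0.54 (log2 ± SE), all at adjusted p = 0.9997. The sign for Cfb turned without WT2, to 0.044. Hc had a difference of 0.78 ± 1.44, wider in error than in size.

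Because the libraries filled the fibroblast-like clusters unevenly, the members were also compared within clusters, a choice made after seeing the data. In cluster 2, C4b stood at 110.4, 116 and 62.3 CPM in the KO libraries, against 307 and 169 CPM in the WT libraries, a log2 difference of -1.39 ± 0.33 (unadjusted p = 0.0013, edgeR adjusted p = 0.9999). C3 had a difference of -1.39 ± 0.42, C2 of -1.15 ± 0.31 and Serping1 of -0.52 ± 0.26 in that cluster. These 4 of 9 members had every KO library below every WT library, against 8.18% of 11937 genes. None of those genes was called (0%), and 246 had p under 0.05 before adjustment. KO2 contributed 37 cells to this cluster, and DESeq2 called 2 genes, no member. C4b passed the threshold without WT2 (log2 difference -1.73, edgeR adjusted p = 0.00252), as 1 of 28 genes called in a fit that leaves WT1 alone, the WT library with more C4b, so the spread came from the KO libraries. In clusters 3, 7 and 11 the differences for C4b were -0.54 ± 0.34, -0.73 ± 0.58 and -1.66 ± 0.84. Those for C3 were -0.29 ± 0.20, -0.41 ± 0.31 and -0.35 ± 0.55, and KO and WT libraries overlapped for both genes in each cluster. C2 was at 0.01 ± 0.31, -0.33 ± 0.37 and -1.11 ± 0.33, and no member was called in these clusters. In cluster 8, which had the most C2 and C4b of the fibroblast-like clusters, the differences were small: -0.36 ± 0.20 for C4b, -0.30 ± 0.23 for C2, -0.34 ± 0.29 for C3 and -0.18 ± 0.20 for Serping1. All 9 members had a negative estimate there, 3 of them, C4b, Cfb and Serping1, without overlap, against 5.94% of all genes tested. Among the 9, C1qa (-1.01 ± 1.04), C1qc (-0.34 ± 0.69) and Hc (-0.26 ± 0.58) had errors larger than their estimates, and C1qb was at -0.64 ± 0.57.

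In macrophage-like cells the C1q genes did not separate by genotype. The differences were 0.27 ± 0.35 for C1qa, 0.01 ± 0.38 for C1qb and 0.11 ± 0.34 for C1qc (log2 ± SE, edgeR adjusted p = 0.9998 each). After TMM scaling C1qa was above both WT libraries in all 3 KO libraries, 1 of 8 members where 6.89% of genes had that order, although its plain CPM overlapped. C4b at 0.05 ± 0.32, Cfb at 0.05 ± 0.28 and C2 at 0.23 ± 0.35 had errors larger than their estimates, and the sign of C1qb, C1qc, C4b, Cfb and C2 turned when 1 library was left out. The libraries filled the 2 macrophage-like groups unevenly. Mean C4b was 168 CPM in KO and 245 CPM in WT in the Ccl3 and Ccl4 group, and 868 and 965 CPM in the other. In the same order Cfb was at 69.7, 99.5, 380 and 413 CPM and C2 at 18.6, 17.1, 74.4 and 81.2 CPM. Genotype was not tested within these groups. C3 was the member below both WT libraries in all 3 KO libraries, 1 of 8 where 7.23% of genes had that order, with a difference of -0.99 ± 0.31 (unadjusted p = 0.0094, adjusted p = 0.9998). The summed level of 9 fibroblast markers in these cells was 564, 606 and 384 CPM in the KO libraries and 252 and 1140 CPM in the WT libraries, no marker was at 0, and their part in the C3 of macrophage-like cells was not tested. Among all 8769 genes 1 was called, 0.0114%, and 197 had p under 0.05 before adjustment. The difference of the C4b response between fibroblast-like and macrophage-like cells was -0.88 ± 0.42 as an interaction (edgeR, unadjusted p = 0.059, adjusted p = 1), so the 2 classes were not shown to differ.

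**Figure D4:**
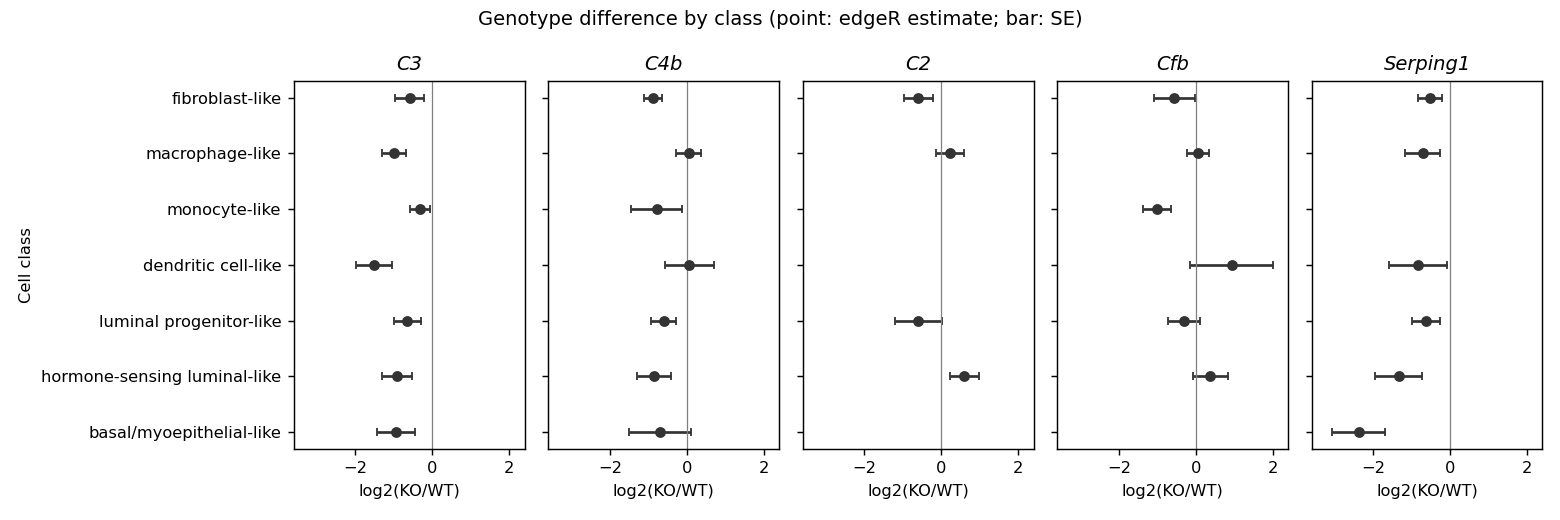
Log2 difference, KO over WT, of C3, C4b, C2, Cfb and Serping1 in 7 cell classes, as edgeR estimates with bars of 1 SE; a missing point was not tested in that class. The points for C3 lie below 0 in all 7 classes, and none passed an adjusted p of 0.05.

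C3 had a negative estimate in each epithelial and myeloid class fitted, which leaves out neutrophil-like and mast cell/basophil-like cells. It was also negative in T cell-like, NK/innate lymphoid-like and B cell-like cells. No member was called in the epithelial, myeloid and T cell-like classes that follow, where 0% of genes were called. In luminal progenitor-like cells 0 of 8 members were called (0% of 11390 genes by edgeR and none by DESeq2, with p under 0.05 for 118 before adjustment), with C3 at -0.65 ± 0.35 and C4b at -0.60 ± 0.33. C4b was 1 of 2 members with all KO libraries below WT there, against 6.70% of genes. In hormone-sensing luminal-like cells C3 stood at 14.3, 14.3 and 9.02 CPM in the KO libraries and 14.8 and 32.5 CPM in the WT libraries. Its difference was -0.92 ± 0.39, and lay between -1.35 and -0.29 with 1 library left out at a time. C3 was 1 of 2 members without overlap there, against 5.64% of genes, while C2 went the other way at 0.60 ± 0.38. In basal/myoepithelial-like cells Serping1 stood at 6.39, 8.17 and 2.07 CPM in the KO libraries and 11.3 and 52.1 CPM in the WT libraries, a difference of -2.39 ± 0.70 (unadjusted p = 0.0073, edgeR adjusted p = 0.99998). These levels rested on 6, 4 and 1 UMIs in 130, 32 and 36 cells of the KO libraries. The WT libraries gave 15 and 80 UMIs in 134 and 70 cells. Without WT1 the difference was -3.05 and the adjusted p 0.00371 by edgeR, 1 of 17 genes called in a fit that leaves WT2 alone, the WT library with more Serping1, so the spread came from the KO libraries. Without WT2 the gene did not pass the low-count filter. The summed fibroblast markers of these cells were 545, 549 and 1266 CPM in the KO libraries and 424 and 2163 CPM in the WT libraries, with the highest value in WT2, where Serping1 was highest; their part in the result was not tested. C3 had a difference of -0.95 ± 0.50 in these cells, and 2 of 5 members did not overlap between genotypes, against 5.56% of genes.

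In monocyte-like cells, with 2 libraries of each genotype, Cfb had a difference of -1.005 ± 0.36 (unadjusted p = 0.018, edgeR adjusted p = 0.9998) and C3 of -0.32 ± 0.26. All KO libraries were below WT for 2 of 6 members, against 15.7% of genes in this class of few cells. In dendritic cell-like cells C3 stood at 13.9, 41.4 and 13.4 CPM in the KO libraries and 62.0 and 53.5 CPM in the WT libraries, a difference of -1.51 ± 0.47. It was the 1 member of 7 without overlap, against 6.88% of genes, and C1qa had a difference of 0.98 ± 0.46. T cell-like cells also had every KO library below WT for C3, as given above, and 2 of 5 members did so against 7.75% of genes. In NK/innate lymphoid-like cells C4b had a difference of -1.70 ± 0.51 (edgeR, unadjusted p = 0.0059, adjusted p = 0.9994). It rested on 3, 6 and 1 UMIs in the KO libraries and 24 and 65 in the WT libraries. C3 was at -1.35 ± 0.47 there and at -0.93 ± 0.35 in B cell-like cells. The estimate was negative for 4 of 4 members in the first class and 4 of 6 in the second, none called. Summed fibroblast markers in the T cell-like cells were 372, 486 and 136 CPM in the KO libraries and 281 and 1547 CPM in the WT libraries. Their part in the lower C3 of the low classes was not tested.

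Over all cells of a library, without regard to class, C4b stood at 229, 132 and 180.4 CPM in the KO libraries and 299 and 267 CPM in the WT libraries. That was a log2 difference of -0.67 ± 0.25 (unadjusted p = 0.037, edgeR adjusted p = 0.9998). C4b and C2, at -0.38 ± 0.21, were the 2 of 9 members without overlap, against 4.21% of 17307 genes, of which 0% were called by edgeR and 9 by DESeq2, with p under 0.05 for 222 before adjustment. Leaving out the unnamed clusters, a choice made after seeing the data, gave -0.65 ± 0.23 for C4b and -0.40 ± 0.23 for C2. Levels over all cells mix the level of each class with the share of that class in the library.

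Of 22 further complement components, such as the C1r and C1s proteases, 13 were measured in fibroblast-like cells, none was called, and 10 had a negative estimate with a median log2 difference of -0.31, beside 0.00 for all genes tested. C1ra, at 471, 445 and 364 CPM in the KO libraries and 631 and 510.2 CPM in the WT libraries (-0.44 ± 0.21), and C1s1, at 796, 700.1 and 541 CPM in the KO libraries and 894 and 759.9 CPM in the WT libraries (-0.31 ± 0.23), had negative estimates. C1ra was below both WT libraries in all 3 KO libraries, an order seen in 4.58% of all genes tested, while the CPM of C1s1 overlapped. With C1qa, C1qb and C1qc in macrophage-like cells and C1ra and C1s1 highest in fibroblast-like cells, the parts of the C1 complex came from different classes. In macrophage-like cells 6 of the 22 were measured, none called, with a median of 0.14. Cfp, which encodes properdin, the stabiliser of the alternative pathway enzyme, was at 784, 573 and 695 CPM in the KO libraries and 496 and 412 CPM in the WT libraries (0.59 ± 0.30), with every KO library above WT, an order seen in 6.89% of genes.

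Regulators and receptors showed as little. Of 18 regulators 12 were measured in fibroblast-like cells, none was called, and their median was -0.16; Cd59a, which blocks the pore, had 6.86, 8.75 and 10.6 CPM in the KO libraries and 5.59 and 6.01 CPM in the WT libraries (0.55 ± 0.27). In macrophage-like cells 4 of the 18 were measured and none was called. Of 11 receptors 8 were measured in fibroblast-like cells and 10 in macrophage-like cells, with medians of -0.48 and -0.02 and none called. C5ar1, the receptor for the C5a fragment, stood at 501, 466 and 227 CPM in macrophage-like cells of the KO libraries and 556 and 536 CPM in those of the WT libraries (-0.47 ± 0.36). Of the genes of the terminal pore, C6 averaged 106 CPM in macrophage-like cells, its highest class, while C7 averaged 5.44 CPM in fibroblast-like cells, C9 averaged 0.288 CPM in luminal progenitor-like cells, and C8b had no UMI in any named class with enough cells.

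Several complement genes are known targets of interferon gamma, so interferon-inducible genes were set beside them. Their list was chosen with earlier results of these data known, and a link to complement was not tested. In fibroblast-like cells 23 of 24 such genes were measured, none was called, 23 had a negative estimate and 14 were below WT in every KO library after TMM scaling, an order seen in 4.58% of all genes tested, with a median of -0.79. Irgm1, an interferon-induced GTPase, stood at 41.5, 62.3 and 31.8 CPM in the KO libraries and 108 and 102 CPM in the WT libraries (-1.23 ± 0.32). In macrophage-like cells 1 of 24 was called: Cxcl9, a chemokine that draws T cells, fell to 9.19, 11.5 and 8.81 CPM in the KO libraries, against 202 and 93.9 CPM in the WT libraries (log2 difference -3.93 ± 0.37, edgeR adjusted p = 0.00865). The call was lost without KO1 and without KO3, where edgeR called 0 genes in these cells. The median of the 24 was -0.25 there, with 17 negative. In luminal progenitor-like cells 22 of 24 were measured, all 22 negative, none called, with a median of -0.91. The median over all genes tested was 0.0073 in macrophage-like and -0.0046 in luminal progenitor-like cells. Acute-phase and inflammatory genes, another set of known companions of C3, had a median of 0.24 in fibroblast-like cells over 17 of 18 measured and none called. In macrophage-like cells 14 of the 18 were measured, with a median of -0.38 and none called.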

How the data were processed

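Gene counts of 5 libraries of mammary gland cells, 3 KO and 2 WT, were deposited by the authors as UMI counts per barcode and gene, made with Cell Ranger 6.0.2 (6.1.2 for KO3) per the file headers and build mm10 per the submitters' processing notes. The sources used here name no further step. The deposited barcodes all held at least 500 UMIs, and a library held 24197344 to 87577099 UMIs. Barcodes passed with 500 genes or more and mitochondrial UMIs of 15% or less, 28588 in all, and 1754 doublets, marked by similarity to simulated doublets, were removed.

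Clustering used Python 3.11.15, scanpy 1.11.5 and leidenalg 0.10.2, with 2000 variable genes, 30 components, 20 neighbours and resolution 1. The 9 complement genes were kept out of clustering and of the marker lists. Clusters were named from marker lists, and a name is a label of this reanalysis. UMIs were summed per library and class where a class had at least 20 cells in that library. Sums were tested in edgeR 4.0.16 (R 4.3.3; filterByExpr, TMM, quasi-likelihood, robust), with genotype as the only term and Benjamini-Hochberg adjustment at 0.05 over all genes tested; the script was tested on simulated data. SEs are the log2 difference over the root of F. Each library was taken as 1 mouse, which the sample titles do not state. The p-values weigh a difference against the spread between libraries, with dispersion estimates that borrow from other genes. Intervals and depth limits cover counting error only.

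The text names all 9 genes, the list genes past the threshold, up to 4 per list with the smallest p, and the genes whose profile over classes was most alike. The members and lists were chosen with earlier results of these data known. Alternatives were DESeq2 1.42.0, RLE factors, no low-count filter, each library left out, a replicate block, doublets kept, looser and stricter cell filters, resolution 2 and other thinning depths. The comparisons within fibroblast-like clusters and without unnamed clusters were added after seeing the data.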

Additional observations from a re-analysis of the deposited data

How the results depend on the processing

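Among the 37 log2 differences given for members, those in named classes stayed under the threshold except in 2 cases: basal/myoepithelial-like Serping1 passed with no low-count filter (log2 difference -2.41, edgeR adjusted p = 0.0192) and without WT1 (-3.05, adjusted p = 0.00371). In cluster 2, C3 passed with no low-count filter (-1.38) and with the replicate block (-0.99), and C4b passed with no low-count filter (-1.39), with the block (-1.16) and without WT2 (-1.73). Those fits of cluster 2 called 40 genes with no filter, 62 with the block and 28 without WT2. Leaving out a WT library leaves 1, assumed to vary like the KO libraries. In fits with the block, the term for KO3, the only library numbered 3, absorbs that library. Their genotype estimate thus rests on KO1, KO2, WT1 and WT2. Of 466 alternative log2 differences, 440 kept their direction and side of the threshold. The sign turned for fibroblast-like C2 within cluster 3 (0.010), Hc with the block (-0.70) and within cluster 8 (-0.26), and Cfb without WT2. In macrophage-like cells it turned with no low-count filter for C1qb (-0.044), with the block for C2 (-0.13), C4b (-0.095) and Cfb (-0.089), and with the stricter cell filter for C4b (-0.045) and Cfb (-0.012). With 1 library left out it also turned there for C1qb, C1qc, C2, C4b, Cfb and Serping1. The cause was not tested. Over the 5 fits that leave out a library, fibroblast-like Cfb lay between -1.19 and 0.044. In macrophage-like cells C1qb lay between -0.29 and 0.17, C1qc between -0.011 and 0.23, C2 between -0.13 and 0.44, C4b between -0.085 and 0.22, Cfb between -0.11 and 0.22, and Serping1 between -1.31 and 0.099. With 1 library left out at a time, fibroblast-like C4b stayed between -1.08 and -0.75, macrophage-like C3 between -1.30 and -0.83, and C4b over all cells between -0.86 and -0.52.

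Counts of genes called moved with the settings. DESeq2 called 1 gene in fibroblast-like, 4 in macrophage-like, 1 in hormone-sensing luminal-like, 1 in monocyte-like, 1 in T cell-like and 9 over all cells. With no low-count filter the count was 38 in macrophage-like, 64 in luminal progenitor-like, 9 in basal/myoepithelial-like, 15 in monocyte-like, 18 in dendritic cell-like, 30 in T cell-like, 6 in NK/innate lymphoid-like and 8 in B cell-like cells. Replicate numbers 1 and 2 occur in both genotypes, but the labels do not say that a number pairs mice. In fibroblast-like cells, residuals of same-numbered libraries correlated at r = 0.514 and r = 0.709 over genes. The residuals of 2 WT libraries mirror each other, so the crossed pairs were bound to give -0.514 and -0.709. Same-numbered libraries also shared their largest fibroblast-like cluster, and its part in the correlation was not tested. With the replicate block the count was 1 in fibroblast-like, 5 in macrophage-like, 17 in luminal progenitor-like, 47 in hormone-sensing luminal-like, 10 in basal/myoepithelial-like, 2 in dendritic cell-like and 12 in NK/innate lymphoid-like cells. The looser cell filter gave 2 in macrophage-like, doublets kept 2 in monocyte-like, and resolution 2 gave 1 in NK/innate lymphoid-like cells. Leaving out 1 library gave 0 to 45 in macrophage-like, 0 to 56 in monocyte-like, 0 to 1 in luminal progenitor-like, 0 to 17 in basal/myoepithelial-like, 0 to 2 in dendritic cell-like, 0 to 2 in T cell-like, 0 to 28 in NK/innate lymphoid-like and 4 to 32 in B cell-like cells, and 0 in fibroblast-like and hormone-sensing luminal-like cells.

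Depth limited the classes of few cells: values on under 3 UMIs lie below what a count of 0 allows.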

Other observations

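The split of C1q UMIs among its 3 chains differed between libraries of the same genotype. C1qb gave 27.6%, 38.2% and 27.9% of the C1q UMIs of macrophage-like cells in KO1, KO2 and KO3, and 32.3% and 37.7% in WT1 and WT2, so that KO2 and WT2 had the highest C1qb share and the lowest C1qa share. The same order held within both macrophage-like groups. C1qa gave 51.0%, 42.4% and 53.3% in the KO libraries and 51.0% and 43.2% in the WT libraries in the Lyve1 and Folr2 group, and 41.2%, 37.9% and 45.3% in the KO libraries and 40.4% and 36.7% in the WT libraries in the Ccl3 and Ccl4 group.

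The large unnamed cluster of KO1 carried complement genes of both stroma and macrophages. Of its 3767 cells, 94.8% had a C1q UMI, 97.5% a C3 UMI and 92.6% both. Macrophage-like cells of KO1 had a C1q UMI in 99.8% and C3 in 21.3%, and fibroblast-like cells of KO1 had C1q in 25.7% and C3 in 64.9%. A cell of the unnamed cluster held a median of 3 C1q UMIs at a median depth of 2841 UMIs, against a median of 33 C1q UMIs at 3681 UMIs in macrophage-like cells of KO1. Its fibroblast markers summed to 19509 CPM and its macrophage markers to 789 CPM. What these barcodes hold was not tested.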
